A study of Drosophila melanogaster with 2 samples.

Results

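The pan-neuronal maturation genes described here are *elav*, *fne*, *Rbp9*, *nSyb*, *brp*, *Syt1* and *futsch*, 7 of the 15902 features measured in single cells of *Drosophila* larval brains with eye discs. They were chosen by name, not by a measured value, though with earlier results of these data known, and all 7 were present in the table. The study silenced *ND-42*, a gene of mitochondrial complex I, in part of the eye disc. The labels name larvae of genotype *mirr*>*ND-42* RNAi BL28894 and control larvae of genotype *mirr*>OreR, 1 library each, all raised for 120 h at 25 °C. The *mirr* driver acts in only some cells of the disc, and the methods call the control Oregon-R without naming the driver. The tables deposited for both samples were identical, down to each of the 33552 cell barcodes, so they were treated as 1 library whose genotype is open. No comparison of genotypes could be made. Transcripts were counted as unique molecular identifiers (UMIs), random tags by which copies of 1 captured molecule are recognised, and cells held a median of 4092 UMIs (range 500 to 333220). The number of cells matched neither of the numbers stated for the 2 genotypes.

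A newborn fly neuron first takes on neuronal RNA processing and only later builds synapses. The ELAV family (*elav*, *fne* and *Rbp9*) encodes RNA-binding proteins that steer splicing and 3′ end choice in neurons. *nSyb* encodes the vesicle SNARE protein of synaptic vesicles, *Syt1* the calcium sensor of their release, and *brp* a scaffold of the active zone where they fuse. *futsch* encodes a microtubule-associated protein of axons, related to vertebrate MAP1B. These genes are widely used as markers because most neuron types express them, whatever their transmitter.

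Cells were assigned to 6 gates by transcripts of other genes, none of them a member. The neuroblast gate held 1666 cells with UMIs of *wor* and *mira*, which mark neural stem cells. The *insb* gate held 5658 cells with *insb*, a gene of newly formed neural progeny, and without *wor*. The *Hey* gate held 10866 cells with *Hey*, a Notch target of newborn neurons, and the transmitter gate 9900 cells with *VAChT*, *VGlut* or *Gad1*, genes of acetylcholine, glutamate and GABA transmission. The photoreceptor gate held 917 cells with *gl* and with *chp* or *phyl*, and the lamina gate 316 cells with *sim* and *eya*. As references served 1302 eye progenitor cells (*Optix* and *eya* without *gl*), 555 glial cells (*repo* and a second glial gene) and 257 hemocytes (at least 3 of 5 blood cell genes), a class that should lack neuronal transcripts. Median depth was 14091 UMIs in neuroblast cells, 5107 in *insb* cells, 4985 in *Hey* cells and 4702.5 in transmitter cells. It was 14216 in photoreceptor cells, 9115 in lamina cells, 13325 in eye progenitor cells, 10888 in glia and 20473 in hemocytes.

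A single UMI is a weak criterion, and the gates overlapped. Of the 20784 cells in any of the 6 gates, 7221 (34.7%) were in 2 or more. Of the 257 hemocytes, 27.2% passed the *Hey* gate, 20.6% the transmitter gate, 15.2% the *insb* gate, 3.11% the neuroblast gate, 2.72% the photoreceptor gate and 0.778% the lamina gate. Called doublets made up 18.9% to 32.0% of the 6 gates, against 13.4% of all cells. Each level is therefore also given for strict, exclusive gates, chosen after seeing the data, in which the gate genes needed 2 UMIs and a cell could belong to 1 gate only. The share of hemocytes passing with 2 UMIs was 13.6% for *Hey*, 7.39% for transmitter genes and 5.06% for *insb*. All 5 independent neuronal markers (*Syx1A*, *Snap25*, *para*, *CadN*, *nrv3*) were highest in transmitter cells, 5 of 6 photoreceptor markers in photoreceptor cells and 3 of 4 neuroblast markers in neuroblast cells. The *insb* gate had the highest level of 1 of 3 ganglion mother cell markers, which summed to 45.6 UMIs per 10000 there and to 124 in transmitter cells, mostly *pros*. The eye progenitor gate had the highest level of 2 of 4 eye progenitor markers, which summed to 14.0 there, 13.1 in photoreceptor cells and 14.1 in transmitter cells. These markers thus did not separate the *insb* and eye progenitor gates from other gates. The summed neuroblast markers reached 4.12 UMIs per 10000 in photoreceptor cells and 4.08 in neuroblast cells, so their sum did not separate these classes. Of the single markers, *grh* was higher in photoreceptor cells (3.00 against 1.12). *dpn* (1.68 against 0.880), *ase* (0.891 against 0.143) and *insc* (0.396 against 0.0935) were higher in neuroblast cells. The 5 hemocyte genes summed to 28.5 UMIs per 10000 in hemocytes and to between 0.115 and 0.314 in the other gates.

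*elav* was the earliest of the 7 in the order of gates and the only one higher in *Hey* cells than in transmitter cells. Early and late refer here to the gates, and whether cells pass through them in this order was not tested. It spans 509235 to 523226 on the minus strand of chromosome X (BDGP6) and shares part of that span with lncRNA:enrr on the same strand, so reads of these genes can be confused. Its mean level was 5.09 UMIs per 10000 in neuroblast cells, 10.5 in *insb* cells, 11.0 in *Hey* cells and 8.39 in transmitter cells. As a percentage of its own level in transmitter cells, this was 60.6% in the neuroblast, 125% in the *insb* and 131% in the *Hey* gate. With strict, exclusive gates *elav* stood at 36.1% of its transmitter level in neuroblast cells and 152% in *Hey* cells. Hemocytes held 1.11 UMIs per 10000 and glia 3.81, so neuroblast *elav* was 4.59-fold above hemocytes but 1.34-fold above glia.

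*fne* had its highest level in transmitter cells. It lies at 12917477 to 12950417 on the plus strand of chromosome X. Its mean level was 4.68 UMIs per 10000 in neuroblast cells, 13.8 in *insb* cells, 12.9 in *Hey* cells and 27.7 in transmitter cells, with 2.17 in hemocytes. In *Hey* cells *fne* thus stood at 46.5% of its transmitter level, and at 36.7% with strict, exclusive gates. *Rbp9* (chromosome 2L, 2954762 to 2968434, plus strand) was scarce, with 2619 UMIs in all cells together. Its level was 0.0559 in neuroblast cells, 0.129 in *insb* cells, 0.126 in *Hey* cells and 0.240 in transmitter cells, with 0.0420 in hemocytes. Along these 4 gates the ELAV family thus split into *elav*, which was highest in *Hey* cells, and *fne* and *Rbp9*, which were highest in transmitter cells.

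The vesicle and active zone genes formed the late end of the order. *nSyb* (chromosome 3L, 1630348 to 1637752, minus strand) had 0.374 UMIs per 10000 in neuroblast cells, 0.978 in *insb* cells, 0.892 in *Hey* cells and 3.59 in transmitter cells, with 0.351 in hemocytes. *Syt1* (chromosome 2L, 2772327 to 2799979, minus strand) had 0.200, 0.544, 0.467 and 2.08 in the same gates, with 0.192 in hemocytes. *brp* (chromosome 2R, 9503765 to 9541565, plus strand) had 0.276, 1.01, 0.921 and 3.57, with 0.175 in hemocytes. In *Hey* cells *nSyb* stood at 24.9%, *Syt1* at 22.5% and *brp* at 25.8% of their own transmitter levels. With strict, exclusive gates these values were 10.7%, 8.61% and 12.9%, and in neuroblast cells 2.89%, 2.25% and 2.33%.

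*futsch* (chromosome X, 1409069 to 1453686, plus strand, with *Gr2a* on the same strand inside its span) lay between the ELAV family and the vesicle genes. Its level was 0.373 UMIs per 10000 in neuroblast cells, 0.996 in *insb* cells, 1.01 in *Hey* cells and 2.63 in transmitter cells, with 0.323 in hemocytes. In *Hey* cells this was 38.4% of its transmitter level, and 18.5% with strict, exclusive gates. The order in *Hey* cells, *elav* before *Rbp9*, *fne*, *futsch*, *brp*, *nSyb* and *Syt1*, was the same with both kinds of gate, although *brp*, *nSyb* and *Syt1* lay within a few percentage points of each other.

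**Figure D1:**
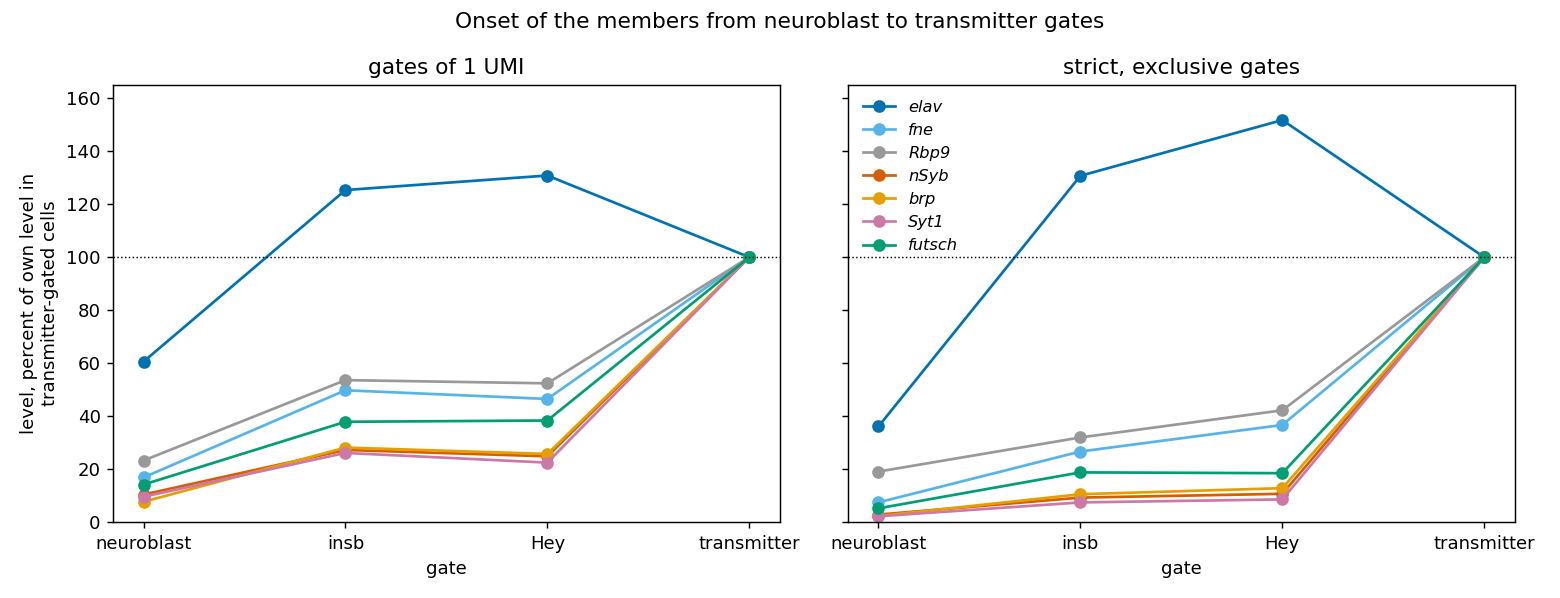
Mean level of each gene (y axis, percent of its own mean level in transmitter cells) along the neuroblast, *insb*, *Hey* and transmitter gates (x axis), with gates of 1 UMI on the left and strict, exclusive gates on the right. *elav* lies above 100% in the *insb* and *Hey* gates in both panels, while *nSyb*, *brp* and *Syt1* run lowest, at 22.5% to 25.8% in *Hey* cells on the left.

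For *Rbp9*, *nSyb*, *Syt1* and *futsch*, the neuroblast values could not be told from background. Summed UMIs give a pooled level with an exact 95% Poisson interval, which covers counting error only. For *nSyb* it was 0.318 (0.300 to 0.337) in neuroblast cells and 0.309 (0.266 to 0.357) in hemocytes. For *Syt1* it was 0.154 (0.141 to 0.167) in neuroblast cells and 0.169 (0.137 to 0.206) in hemocytes, and the intervals of *futsch* and *Rbp9* overlapped in the same way. *brp* was higher in neuroblast cells, at 0.231 (0.216 to 0.248), than in hemocytes, at 0.157 (0.127 to 0.193). It was lower there than in glia (0.327, 0.291 to 0.365) and eye progenitor cells (0.346, 0.322 to 0.371). With strict, exclusive gates its intervals overlapped, with 0.098 (0.082 to 0.116) in neuroblast cells and 0.081 (0.053 to 0.119) in hemocytes. *elav* reached 3.25 (3.19 to 3.31) in neuroblast cells against 1.24 (1.15 to 1.33) in hemocytes, and *fne* 3.39 (3.33 to 3.45) against 2.04 (1.92 to 2.16). Pooled *fne* was 3.81 in glia and 3.76 in eye progenitor cells, so neuroblast cells did not exceed these classes for *fne*. Fold changes over neuroblast cells are therefore, for *Rbp9*, *nSyb*, *Syt1* and *futsch*, close to fold changes over background. In *Hey* cells without a transmitter gene, pooled *nSyb* was 0.342 (0.328 to 0.357) and *Syt1* 0.166 (0.156 to 0.176). Both intervals also overlapped those of hemocytes. Pooled *brp* (0.352, 0.338 to 0.367) and *futsch* (0.527, 0.510 to 0.546) were above hemocytes there, but the *brp* interval overlapped that of glia.

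**Figure D2:**
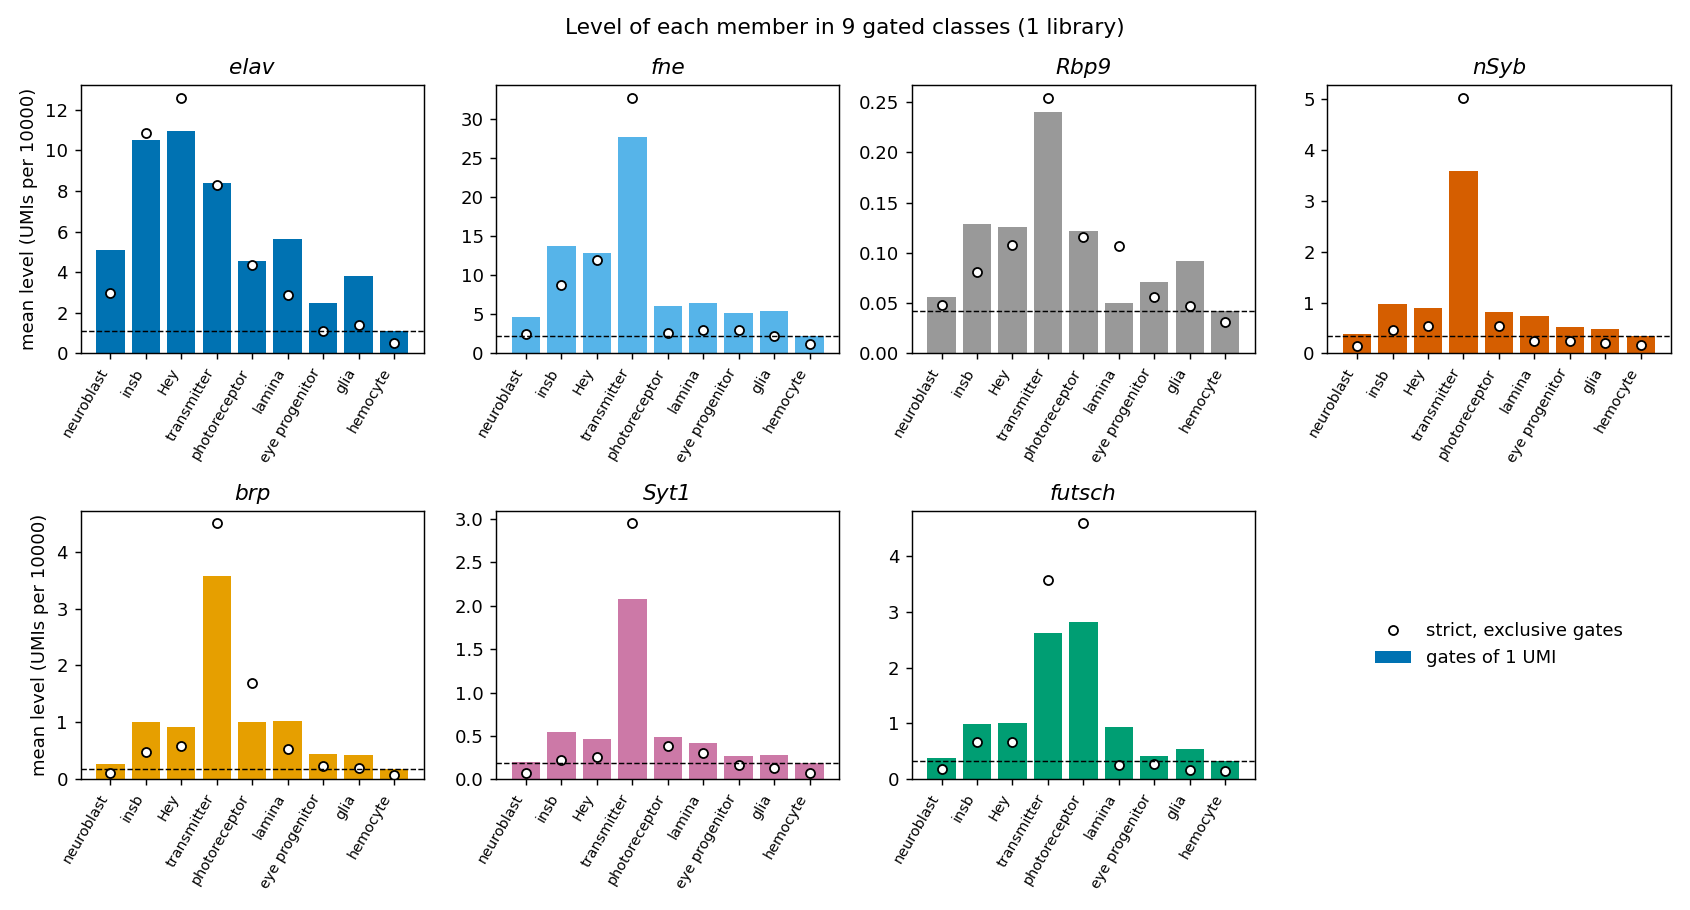
Mean level of each gene (y axis, UMIs per 10000, each panel on its own scale) in the 9 gated classes (x axis). Bars are gates of 1 UMI, open circles strict and exclusive gates, and the dashed line the hemocyte level. *elav* is highest in *Hey* cells (11.0), *futsch* in photoreceptor cells (2.81) and the other 5 genes in transmitter cells.

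Relative to neuroblast cells, 6 of the 7 genes were at least 2-fold higher in transmitter cells, where 22.9% of the 8643 genes with at least 100 UMIs were, and none was at least 2-fold lower (9.65% of all genes). The log2 ratio was 3.70 for *brp*, 3.38 for *Syt1*, 3.26 for *nSyb*, 2.82 for *futsch*, 2.56 for *fne*, 2.10 for *Rbp9* and 0.72 for *elav*. In the deepest of 4 equal groups of transmitter cells (median 13646 UMIs), *Syt1* had 1.54 against 0.200 in neuroblast cells (median 14091). *nSyb* had 2.47 against 0.374, *brp* 1.67 against 0.276 and *futsch* 1.66 against 0.373. *fne* had 19.6 against 4.68, *Rbp9* 0.148 against 0.0559 and *elav* 5.91 against 5.09. The same 6 genes were at least 2-fold higher there, but *brp* did not lead. All 7 genes were at least 2-fold higher in *insb* cells than in neuroblast cells (14.0% of all genes) and in *Hey* cells than in neuroblast cells (12.2%). Of all genes, 5.85% and 6.02% were at least 2-fold lower in these comparisons. Members at least 2-fold higher numbered 6 or 7 over 8 alternatives. The lowest log2 ratios were 0.77 and 0.82 for *elav* and 0.66 and 0.55 for *Rbp9*. In the deepest of 4 equal groups of *Hey* cells (median 15158 UMIs), *elav* had 6.13, against 5.09 in neuroblast cells (median 14091). *Rbp9* had 0.0955 against 0.0559, so these genes were under 2-fold there, while the other members were not. *insb* cells were not grouped by depth. Between *Hey* and *insb* cells none of the 7 differed by 2-fold, as for nearly all genes (0.248% were higher and 0.373% lower), and 3402 cells were in both gates. The log2 ratios there ran between -0.22 for *Syt1* and 0.06 for *elav*. The sign depended on the setting for every member but *elav*. *fne*, *nSyb* and *Syt1* were lower in *Hey* cells with gates of 1 UMI and higher with strict gates. Over 8 alternatives *brp* (-0.63 to 0.32), *Rbp9* (-0.11 to 0.40) and *futsch* (-0.19 to 0.09) changed sign too.

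Between transmitter and *Hey* cells, 5 of the 7 genes were at least 2-fold higher in transmitter cells, against 11.6% of all genes, and none was at least 2-fold lower (1.99%). *Syt1* led with a log2 ratio of 2.15, or 4.45-fold (pooled ratio 3.57, exact 95% interval 3.45 to 3.70). *nSyb* followed with 2.01 (pooled ratio 3.30, 3.22 to 3.39), *brp* with 1.96, *futsch* with 1.38 and *fne* with 1.10. *Rbp9* was just under the limit at 0.93, but past it in 5 of 8 alternatives (0.74 to 1.24). The count of members was thus 5 or 6 over the alternatives. *elav* was lower in transmitter cells, with a log2 ratio of -0.39 (pooled ratio 0.855, 0.845 to 0.865), and its sign was the same under all 8 alternatives (-0.60 to -0.23). In 4 equal groups by depth *elav* had 13.2, 12.9, 11.7 and 6.13 in *Hey* cells. Transmitter cells had 9.13, 9.64, 8.89 and 5.91. In the deepest groups (medians of 15158 and 13646 UMIs) the difference was thus small, and pooled *elav* was 4.42 and 4.46. There was 1 library and cells are not replicates, so no test was made. The paper's design section speaks of triplicates for this assay, while the labels give 1 library for each genotype.

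Shares of cells with a UMI depend on depth, so each cell was thinned to 2000 UMIs and shallower cells were left out (29 neuroblast, 524 *insb*, 1132 *Hey*, 1453 transmitter and 0 hemocyte cells). After thinning, *elav* was detected in 49.8% of neuroblast cells, 75.0% of *insb* cells, 77.5% of *Hey* cells and 73.8% of transmitter cells, with 17.5% of hemocytes (exact 95% interval 13.1% to 22.7%). *fne* was detected in 43.4%, 68.3%, 70.0% and 83.6% of the same gates and in 20.6% of hemocytes. The 4 later genes were detected in few cells before the transmitter gate. *nSyb* was found in 5.31% of neuroblast cells, 13.7% of *insb* cells, 12.7% of *Hey* cells and 42.0% of transmitter cells, with 3.50% of hemocytes. For *Syt1* the shares were 3.67%, 8.49%, 7.43% and 28.5%, with 3.89% of hemocytes. *brp* was found in 4.22%, 11.0%, 10.7% and 34.6%, and *futsch* in 4.83%, 11.6%, 12.6% and 27.0%, with 2.72% and 5.84% of hemocytes. Unthinned, *nSyb* had a UMI in 24.0% of neuroblast cells and 26.5% of hemocytes, and in 64.6% of transmitter cells and 25.2% of *Hey* cells.

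**Figure D3:**
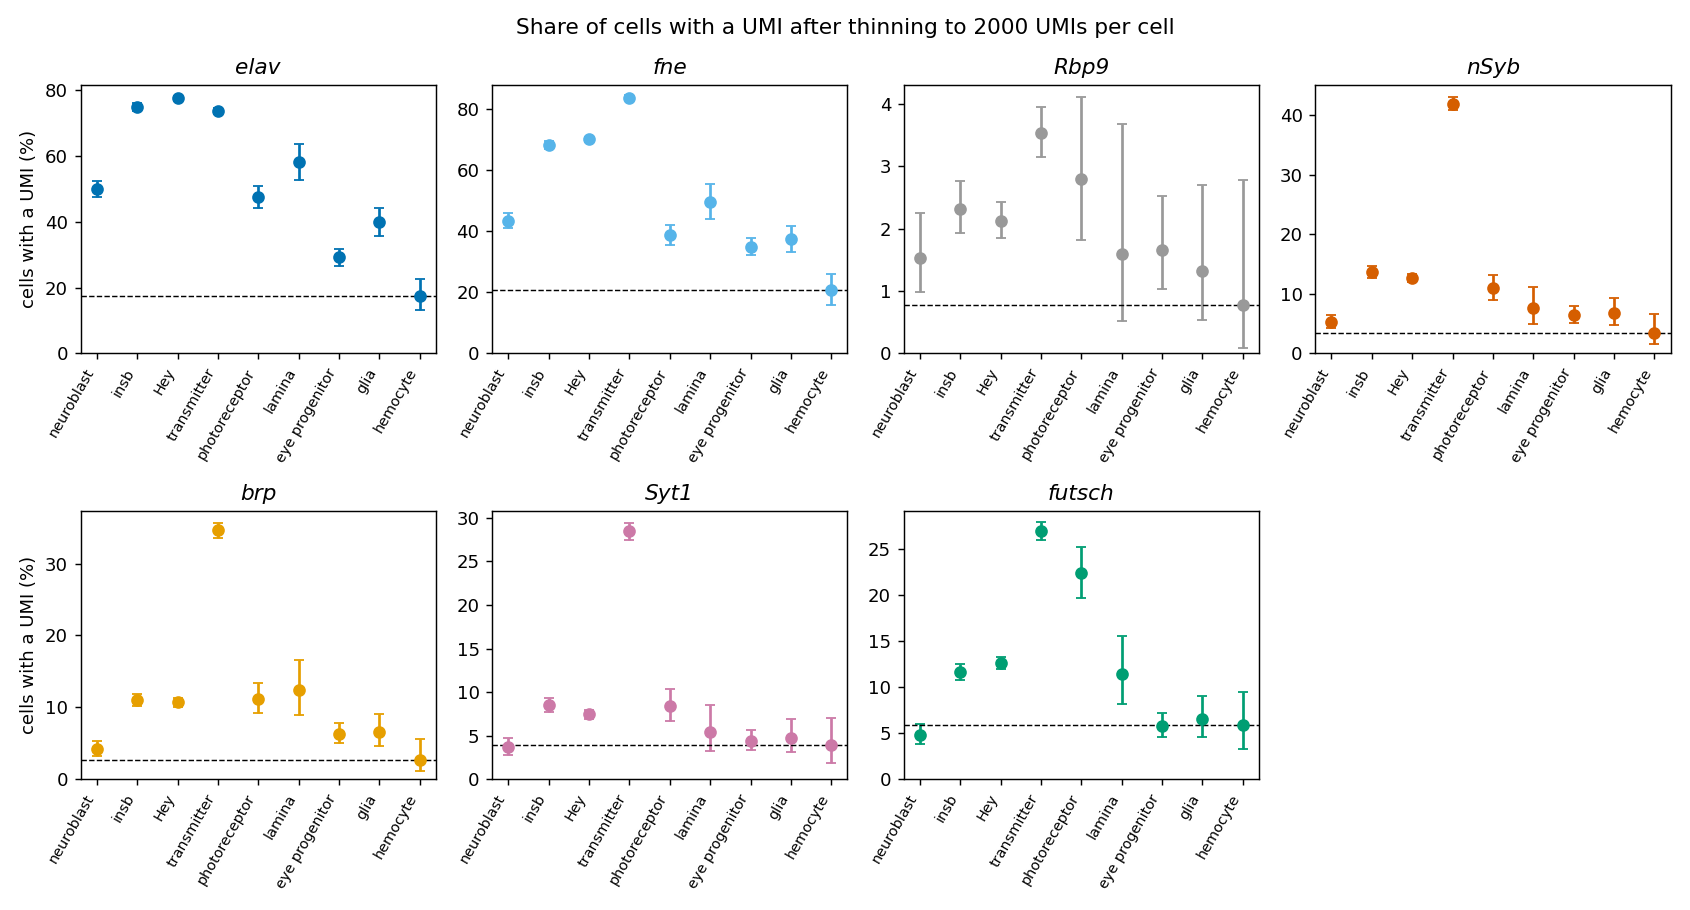
Share of cells with at least 1 UMI of each gene (y axis, percent, own scale per panel) in the 9 classes (x axis) after thinning to 2000 UMIs per cell. Bars are exact 95% binomial intervals for counting error only and the dashed line is the hemocyte share. *nSyb*, *brp* and *Syt1* stand out in transmitter cells (42.0%, 34.6% and 28.5%), *futsch* in transmitter and photoreceptor cells (27.0% and 22.4%).

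Counted per cell, the 4 later genes (*nSyb*, *brp*, *Syt1*, *futsch*) had no UMI in most thinned cells before the transmitter gate, which does not show that those cells lacked the transcripts. None of the 4 was detected in 86.0% of thinned neuroblast cells, 70.2% of *insb* cells, 71.2% of *Hey* cells and 29.3% of transmitter cells, against 87.5% of hemocytes. Neuroblast cells thus resembled hemocytes in this count. All 4 were found in 4.25% of transmitter cells and 0.596% of *Hey* cells. Among the 9734 thinned *Hey* cells, 6528 had *elav* without *nSyb* and 221 had *nSyb* without *elav*. *nSyb* was detected in 42.0% of the *Hey* cells with *Syt1*, compared with 12.7% of all *Hey* cells. *elav* was detected in 82.1% of the *Hey* cells with *nSyb*, close to its 77.5% in all *Hey* cells. *elav* and *fne* changed places between the gates. Of the 8447 thinned transmitter cells, 749 had *elav* without *fne* and 1576 *fne* without *elav*, whereas 1859 *Hey* cells had *elav* without *fne* and 1130 *fne* without *elav*.

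The *Hey* gate held 2744 cells that also had a transmitter gene. Late genes were lowest in the 8122 *Hey* cells without a transmitter gene, intermediate in cells with both and highest in the 7156 transmitter cells without *Hey*. *nSyb* had 0.459, 2.17 and 4.13 UMIs per 10000 in these classes, *brp* 0.516, 2.12 and 4.13, *Syt1* 0.222, 1.19 and 2.42, and *futsch* 0.695, 1.94 and 2.89. *fne* followed the same order with 10.1, 20.9 and 30.2. *elav* ran the other way, with 11.3, 10.1 and 7.73. Median depth was 4476, 6738.5 and 4041 UMIs in the same classes. The part of depth, doublets or free RNA in the pattern was not tested.

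Levels also varied with the amount of the gate transcripts. In *Hey* cells with 1, 2 to 4 and 5 or more *Hey* UMIs, *elav* had 8.57, 11.4 and 13.9 UMIs per 10000. *nSyb* had 1.22, 0.789 and 0.559 in the same classes, *brp* 1.34, 0.772 and 0.533, and *futsch* 1.41, 0.875 and 0.624. More *Hey* thus went with more *elav* and with less of the late genes. In transmitter cells with 1, 2 to 4 and 5 or more UMIs of the transmitter genes, *nSyb* had 2.73, 3.96 and 6.61, *Syt1* 1.58, 2.23 and 4.11, and *futsch* 2.06, 2.73 and 5.25. *brp* had 3.21, 3.96 and 3.89 and *elav* 8.11, 8.69 and 8.61, without a steady order. Median depth was 4079, 4882 and 7727 UMIs in these classes, and its part in the pattern was not tested.

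**Figure D4:**
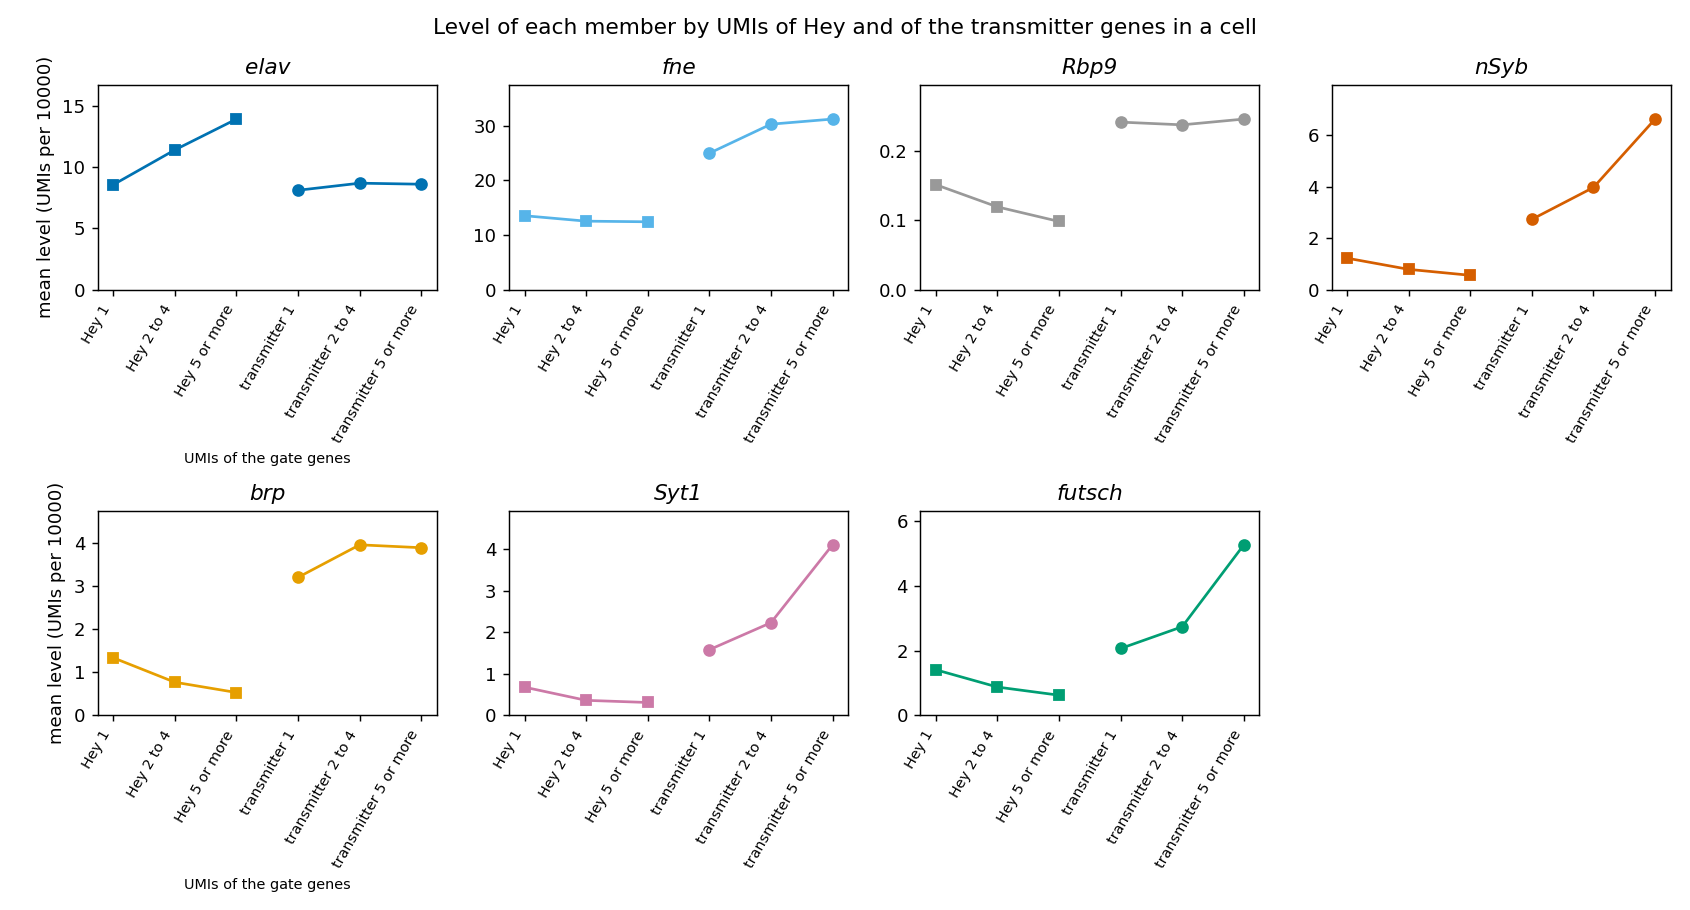
Mean level of each gene (y axis, UMIs per 10000) in cells with 1, 2 to 4 and 5 or more UMIs of *Hey* (squares) or of the transmitter genes (circles). *elav* climbs with *Hey* UMIs (8.57 to 13.9) while *nSyb* declines (1.22 to 0.559), and *nSyb*, *Syt1* and *futsch* climb with transmitter UMIs.

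Within the transmitter gate, levels varied with depth. In 4 equal groups of transmitter cells by depth, with medians of 1848, 3545, 6152 and 13646 UMIs, *brp* had 5.73, 4.09, 2.81 and 1.67 UMIs per 10000. *futsch* declined likewise, with 3.75, 2.98, 2.12 and 1.66. *Syt1* stayed at 2.24, 2.23 and 2.30 in the first 3 groups and had 1.54 in the deepest, and *Rbp9* had 0.346, 0.222, 0.244 and 0.148, while *fne* was highest in the third group at 38.6. *nSyb* had 4.08, 4.04, 3.75 and 2.47 and *elav* 9.13, 9.64, 8.89 and 5.91, with the lowest value of each in the deepest group.

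All 7 genes were found in cells of each transmitter type. Cells with UMIs of 1 transmitter gene only numbered 5438 for *VAChT*, 2562 for *VGlut* and 1119 for *Gad1*, with median depths of 4388, 4505.5 and 5223 UMIs. *elav* (8.57, 8.45 and 7.62 UMIs per 10000) and *fne* (26.5, 27.5 and 29.5) were close in all 3. *nSyb* had 3.53, 3.28 and 4.12 and *Syt1* 2.05, 1.71 and 2.77, with the highest values in *Gad1* cells. *futsch* had 3.01, 1.86 and 2.61 and *brp* 3.95, 2.93 and 3.29, lowest in *VGlut* cells. When 2 UMIs were required, *VGlut* cells were again lowest for *futsch* (3.63, 2.33 and 4.98) and *brp* (4.41, 3.26 and 4.22), over 2499, 1272 and 344 cells.

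In photoreceptor cells, *futsch* stood apart from the other members. Photoreceptors are neurons of the eye disc that have not yet formed synapses in the lamina at larval stages. The gate did not stand out for *elav*, with 4.53 UMIs per 10000 against 5.09 in neuroblast cells. After thinning, *elav* was detected in 47.4% and 49.8% of these cells. How many cells of the gate were differentiated photoreceptors was not tested. *futsch* had 2.81 UMIs per 10000 in photoreceptor cells against 0.422 in eye progenitor cells, a log2 ratio of 2.74 (pooled ratio 3.53, 3.28 to 3.81). *brp* had 1.01 in photoreceptor cells and 0.451 in eye progenitor cells (log2 ratio 1.16), and *elav* 4.53 and 2.48 (0.87). *Syt1* (0.86), *Rbp9* (0.77), *nSyb* (0.67) and *fne* (0.21) had smaller log2 ratios. Thus 2 of the 7 were at least 2-fold higher, where 4.73% of all genes were. This count ranged between 1 and 6 over 9 alternatives, and *futsch* was the only member past 2-fold with pooled UMIs, with thinned cells and without the 68 photoreceptor cells that had *chp*. Without those 68 cells the log2 ratio of *brp* was 0.56, and its pooled level was 0.358 in photoreceptor cells against 0.346 in eye progenitor cells. The log2 ratio of *fne* was -0.21 with strict, exclusive gates, so its direction depended on the gates. In pooled UMIs the ratio was 0.987 for *nSyb* (0.903 to 1.08) and 0.962 for *Syt1* (0.854 to 1.08), so no difference was detectable for these genes on that scale.

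Set against transmitter cells, photoreceptor cells had 4 of the 7 genes at least 2-fold lower (14.7% of all genes were) and none at least 2-fold higher (13.4%). With exclusive gates 6 of the 7 were lower, *elav* and *Rbp9* included. Photoreceptor cells held 21.8% of the transmitter level of *fne*, 22.9% of *nSyb*, 23.4% of *Syt1* and 28.1% of *brp*. They held 50.6% of that of *Rbp9*, 54.0% of that of *elav* and 107% of that of *futsch*. With strict, exclusive gates the value for *futsch* was 128% and that for *brp* 37.5%. Pooled UMIs turned the order for *futsch*, with 1.33 (1.28 to 1.37) in photoreceptor cells and 1.77 (1.74 to 1.80) in transmitter cells. After thinning, *futsch* was detected in 22.4% of photoreceptor cells against 5.84% of hemocytes, and 71.5% of the photoreceptor cells with *futsch* also had *elav*, compared with 47.4% of all photoreceptor cells.

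The photoreceptor gate rested mostly on *phyl*, since 68 of its 917 cells had *chp*, which encodes the photoreceptor surface protein chaoptin. These 68 cells were given apart after seeing the data and had a median of 34106 UMIs, against 13778 in the 849 cells without *chp*. *brp* averaged 5.27 UMIs per 10000 with *chp* and 0.664 without, and after thinning it was detected in 28.6% (17.9% to 41.3%) and 9.87% (7.93% to 12.1%) of cells. *Syt1* averaged 0.515 with *chp* and 0.484 without, *elav* 5.11 and 4.49, and *futsch* 3.93 and 2.72. The *brp* difference was 1.30 (1.19 to 1.42) with *chp* against 0.358 (0.333 to 0.384) without in pooled UMIs, and the part of depth in it was not tested.

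The lamina gate gave the weakest data. *elav* had 5.66 UMIs per 10000 in lamina cells against 2.48 in eye progenitor cells (log2 ratio 1.19), *brp* 1.02 against 0.451 (1.18) and *futsch* 0.933 against 0.422 (1.14). These 3 of the 7 were at least 2-fold higher, where 3.23% of all genes were, and none was at least 2-fold lower (6.6%). *elav* was at least 2-fold higher in all 8 alternatives (log2 ratio 1.09 to 2.37), but *brp* and *futsch* were lower in lamina cells with exclusive gates, at -0.24 and -0.07. With strict, exclusive gates 24 lamina cells were left. Against transmitter cells, 6 of the 7 genes were at least 2-fold lower in lamina cells (17.4% of all genes were), with *elav* at a log2 ratio of -0.57, and none was at least 2-fold higher (7.75%). Lamina cells were deeper (median 9115 UMIs) than transmitter cells (4702.5), and the part of depth in this was not tested.

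Other genes of neuronal maturation were also mostly higher in transmitter cells. The lists include *Syx1A*, *Snap25*, *para*, *CadN* and *nrv3*, given above as highest in transmitter cells, so the counts are partly fixed beforehand. Of 12 further genes of vesicle release, 9 were at least 2-fold higher in transmitter than in neuroblast cells and none lower (22.9% and 9.65% of all genes were), with a median log2 ratio of 2.56 against 0.18 for all genes. The highest was *Syn* (3.48), which encodes synapsin, and the lowest *Csp* (-0.10), a vesicle chaperone. Of 7 active zone and transport genes 6 were higher, between *Rim* (3.33) and *Liprin-alpha* (0.93). All 7 measured ion channel, pump and receptor genes were higher, between the potassium channel genes *Shab* (3.81) and *Shal* (3.19). Of 6 cytoskeletal genes 4 were higher, led by *tau* (3.09), while the kinesin gene *Khc* stood at 0.05. Of 6 adhesion and axon genes 4 were higher, between *CadN* (2.96) and *Fas3* (-0.10).

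The lists of earlier steps held genes of both directions. They include markers already used above, *dpn*, *ase*, *insc* and *grh* for neuroblasts and *dap* and *pros* for ganglion mother cells. Of 5 genes of postmitotic onset 4 were at least 2-fold higher in transmitter than in neuroblast cells, led by *pros* (2.67), and the cell cycle inhibitor gene *dap* was lower (-1.36). Of 7 stem cell and cell cycle genes 6 were at least 2-fold lower (9.65% of all genes were), led by *CycE* (-3.31), and *grh* stood at -0.75. Between transmitter and *Hey* cells, 7 of 12 vesicle, 5 of 7 active zone, 7 of 7 excitability, 1 of 6 cytoskeletal and 2 of 6 adhesion genes were at least 2-fold higher in transmitter cells, where 11.6% of all genes were. The active zone gene *Rbp* resembled *elav* in being lower in transmitter than in *Hey* cells (log2 ratio -0.37), while the vesicle gene *Syn* (2.28) and *Shab* (2.37) resembled *nSyb*.

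Over the 9 classes, the members differed in which other genes they resembled. Likeness was Pearson's r of log2 levels (pseudocount 0.01) among 7190 genes with at least 1000 UMIs, given as a description of 9 classes that share 1 library and its free RNA. *nSyb* and *Syt1* were most like each other among the members (r = 0.998), and *elav* and *futsch* least (0.594). Outside the members, *Nrx-1*, which encodes the synaptic adhesion protein neurexin, was closest to both *nSyb* (0.997) and *Syt1* (0.994), followed by *CG17124* and *Sh* for *nSyb* and by *Dhit* and *CG6123* for *Syt1*. *Nrx-1* had 0.109 UMIs per 10000 in neuroblast cells, 0.299 in *insb* cells, 0.274 in *Hey* cells and 1.09 in transmitter cells. *brp* was closest to *CG42324* (0.991), *dpr19* and *CG17270*, and *fne* to *dpr7* (0.996), *OtopLa* and *CG3955*. *elav* was closest to *CG6024* (0.990), *Sirt1* and *Cen*, *Rbp9* to *Sara* (0.980), *pb* and *FucTA*, and *futsch* to *CG34377* (0.979), *SP2353* and *Ekar*. These ranks depended in part on the pseudocount. At 0.1, *OtopLa*, *Met* and *CG10137* were closest to *fne*, *Dhit* to *Syt1* and *Cen* to *elav*. The closest gene was unchanged for *nSyb*, *brp*, *Rbp9* and *futsch*. In mean levels *CG34377* shared the photoreceptor peak of *futsch*, with 1.53 UMIs per 10000 in photoreceptor cells and 1.22 in transmitter cells. In pooled UMIs *futsch* had no such peak, with 1.33 in photoreceptor cells and 1.77 in transmitter cells.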

How the data were processed

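Single cells were sequenced by droplet capture. Per the labels, the processing tools were Cell Ranger and Seurat, and the methods give BDGP6 as the genome. The values the authors deposited are on a natural log scale, the logarithm of 1 + UMIs scaled to 10000 in each cell, as judged by the numbers themselves. Dividing each cell by its lowest value gave whole UMIs for 100% of values within 0.01, 243468253 UMIs in all. The filters on cells were not given in the sources used here.

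The analysis used Python 3.11.15, numpy 2.4.6, scipy 1.17.1 and scanpy 1.11.5 (Scrublet doublets, kept except in 1 alternative). UMIs per 10000 were averaged over the cells of a gate to give a level. A pooled level is summed UMIs over the summed depth, and intervals are exact, 95%, and cover counting error only. A gene was counted at a fold of 2, over non-transposon genes with at least 100 UMIs in both gates together. The methods were tested on simulated data. No p-value was computed, since cells of 1 library are not replicates. Gene loci are from Ensembl 115.

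The named genes were the 7 members, the highest and lowest gene of each fixed list and the 3 genes most like each member. The members and lists were chosen with earlier results of these data known. The list gene *elk* was not analysed here. Alternatives were exclusive gates, strict gates of 2 UMIs, pooled UMIs, thinned cells, hemocyte levels subtracted, and cells without doublets or without depths over 20000 UMIs. Strict and exclusive gates together, and the classes by UMIs of the gate genes, by *Hey* and transmitter genes and by *chp*, and counts of lower members, were added after seeing the data.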

Additional observations from a re-analysis of the deposited data

How the results depend on the processing

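No paired analysis was possible because only 1 library was held. Members at least 2-fold higher and at least 2-fold lower were counted in each comparison, the lower ones under alternatives added after seeing the data. Of 8 counts above 0, 6 stayed within 1.5 times under every alternative, and of 10 counts of 0, 9 stayed at 0, which says little about stability. For photoreceptor over eye progenitor cells (2 of 7) the count was 5 with exclusive gates, 6 with hemocyte levels subtracted, 1 with pooled UMIs, 6 with strict and exclusive gates, 1 with thinned cells, 4 without called doublets, 1 without the photoreceptor cells that had *chp* and 4 without cells over 20000 UMIs. For lamina over eye progenitor cells (3 of 7) it was 1 with exclusive gates (6 members measured, since *Rbp9* had 0 UMIs), 5 with hemocyte levels subtracted, 1 with strict gates and 1 without cells over 20000 UMIs. No member was at least 2-fold lower there, against 1 with exclusive gates and 1 with hemocyte levels subtracted. The causes were not tested.

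The log2 ratio of single members changed sign in 28 cases, 19 of them where the counting interval of the pooled ratio did not include 1. For *Hey* over *insb* cells these were *fne* (0.21 with strict gates, 0.46 with strict and exclusive gates), *nSyb* (0.14 and 0.21), *Syt1* (0.14 and 0.20) and *futsch* (-0.19 with pooled UMIs, -0.024 with strict and exclusive gates). For lamina over eye progenitor cells they were, with exclusive gates, *nSyb* (-1.42), *brp* (-0.24), *Syt1* (-0.16) and *futsch* (-0.073), with strict gates *nSyb* (-0.41), and with strict and exclusive gates *futsch* (-0.10) and *nSyb* (-0.027). For photoreceptor over eye progenitor cells *fne* was -0.26 with pooled UMIs, -0.22 with strict gates and -0.21 with strict and exclusive gates. For photoreceptor over transmitter cells *futsch* was -0.41 with pooled UMIs. Depth limits *Rbp9* most, with 25 UMIs in lamina cells and 29 in hemocytes.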
